A study of Homo sapiens with 3 samples.

Results

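The aryl hydrocarbon receptor pathway and drug-metabolizing enzymes were followed through 10 genes in PANC-1 cells, a cell line from a human pancreatic ductal carcinoma. These genes were taken by symbol from a count table of 51136 genes, and each of the 10 symbols matched 1 row. The genes were AHR, ARNT, AHRR, TIPARP, CYP1A1, CYP1B1, CYP3A5, CYP2D6, SULT1A1 and POR. There were 3 libraries, 1 per condition. The control cells received no agent, the Rg3 cells received ginsenoside Rg3, a ginseng saponin, at 200 µM for 24 h, and the TAM cells received tamoxifen, an antiestrogen, at 50 µM for 24 h. All were PANC-1 cells grown in serum-containing medium, and total RNA was sequenced on the Ion Proton platform. No replicate culture was given, so no difference below has a replicate check or a p-value, and every interval covers counting error only.

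The aryl hydrocarbon receptor, encoded by AHR, is a transcription factor that waits in the cytoplasm with chaperones until a ligand such as a dioxin, a polycyclic hydrocarbon or a tryptophan metabolite binds it. It then enters the nucleus, pairs with ARNT and binds a short DNA element at genes such as CYP1A1, CYP1B1, AHRR and TIPARP. CYP1A1 and CYP1B1 are cytochrome P450 enzymes that oxidise the ligands, while AHRR (a repressor related to AHR) and TIPARP (an ADP-ribosyltransferase) restrain the receptor in turn. Tamoxifen is itself a substrate of drug-metabolizing enzymes: CYP2D6 and CYP3A enzymes convert it to more active metabolites, SULT1A1 adds sulfate to the hydroxylated forms, and POR passes electrons to every P450 of the endoplasmic reticulum.

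The element that the receptor and ARNT recognise contains GCGTG, which reads CACGC on the other strand. The 250 bases before the start site were searched for it on both strands in the RefSeq promoter table of GRCh38.p14, which held 9 start sites of 6 of the 10 genes. The letters were present before 4 of these 9 start sites, and before 32.2% of all 35116 start sites in the table, so that they alone single out no gene. The windows of the 3 target genes that turn up repeatedly in the results are shown from 5′ to 3′ in the direction of the gene, with GCGTG or CACGC in capitals. The TIPARP window is chr3:156674340-156674589 on the plus strand, that of AHRR is chr5:321464-321713 on the plus strand, and that of CYP1A1 is chr15:74725529-74725778 on the minus strand.
TIPARP: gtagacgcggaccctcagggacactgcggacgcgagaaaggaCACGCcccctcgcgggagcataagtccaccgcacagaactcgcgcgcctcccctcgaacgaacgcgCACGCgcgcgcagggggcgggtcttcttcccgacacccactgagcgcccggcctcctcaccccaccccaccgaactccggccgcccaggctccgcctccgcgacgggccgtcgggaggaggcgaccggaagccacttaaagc
AHRR: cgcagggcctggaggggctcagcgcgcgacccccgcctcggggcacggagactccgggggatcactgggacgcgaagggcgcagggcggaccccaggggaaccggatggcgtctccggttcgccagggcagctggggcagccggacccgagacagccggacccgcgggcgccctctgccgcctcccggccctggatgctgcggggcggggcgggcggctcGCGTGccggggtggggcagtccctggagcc
CYP1A1: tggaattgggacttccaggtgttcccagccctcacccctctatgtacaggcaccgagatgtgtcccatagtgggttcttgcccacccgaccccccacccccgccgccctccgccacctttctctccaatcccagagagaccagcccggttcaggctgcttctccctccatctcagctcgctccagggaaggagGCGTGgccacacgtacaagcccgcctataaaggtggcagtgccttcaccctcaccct
In the window shown, TIPARP held the letters 2 times, both on the strand opposite to the gene, starting 208 and 142 bases before the start site. AHRR held them 1 time on its own strand, 30 bases before the start, and CYP1A1 1 time on its own strand, 57 bases before the start. A second AHRR start site held 2 more matches, whereas the other TIPARP start sites, with windows from chr3:156674676 and chr3:156676414, held none. The windows of AHR, ARNT and CYP3A5 held none, and such a match is a run of letters and not a measured binding site. CYP1B1, CYP2D6, SULT1A1 and POR had no start site among those searched, and bases further upstream were not searched for any gene.

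The libraries held 11300766 (control), 12861693 (Rg3) and 11321442 (TAM) counts. The 6 markers fixed for the line were detected in all 3 libraries and summed to 82760, 55415 and 70155 counts. VIM, a mesenchymal marker, gave the most of these (55276, 39783 and 42048), followed by the epithelial keratins KRT8 and KRT18. EPCAM had 26, 26 and 8 counts and KRT7 had 248, 93 and 345. The acinar, endocrine and endothelial marker lists each summed to 6 counts or fewer per library, and the 4 hepatocyte markers were at 0. COL1A1 gave nearly all of the fibroblast list (1854, 1007 and 735 counts) and CD68 of the leukocyte list (615, 426 and 1101 counts), while DCN, LUM, PTPRC and CD3E had 2 counts or fewer in any library, and the part of these lists in the results below was not tested. Levels are given as scaled CPM, a gene's counts per 1000000 counts of its library after TMM scaling, where TMM sets the libraries to a common level for most genes. A gene was compared when either library had at least 10 counts, and it was called higher or lower when the fold passed 1.5 or 0.67 and its 95% counting interval did not include a fold of 1.

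Fold changes of all genes moved with the GC content of the transcript, and in opposite directions for the agents. Across genes with at least 50 counts, Spearman's rho between GC content and the log2 fold change was -0.81 for Rg3 against control (11992 genes) and 0.52 for TAM against control (11405 genes), and with transcript length it was 0.21 and -0.48. Between TAM and Rg3 the rho with GC content was 0.79 (12006 genes). These are descriptions across genes, which are not independent replicates. In transcripts with 38% to 40% GC the median log2 fold change was 0.78 for Rg3 and -0.61 for TAM, whereas at 60% to 62% GC it was -0.56 and 0.40. AHR has 38.2% GC and POR 61.3% GC, near both ends of this range. For the 10 genes and the list genes, fold changes against control are therefore also given after a smooth trend on GC content and length was subtracted. A change that a treatment brought about in step with GC content and one that arose in the library cannot be told apart.

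Of the 10 genes, 8 had enough counts to be compared. Against control, AHR and TIPARP were higher in the Rg3 library and no gene was lower, which is 2 of 8 beside 20.9% of 16487 genes called higher and 16.2% called lower. In the TAM library TIPARP and CYP1A1 were higher and AHR was lower, which is 2 and 1 of 8 beside 14.4% of 16079 genes called higher and 19.0% called lower. After the trend was subtracted, none of the 8 genes was called for Rg3, beside 5.39% of 14814 genes higher and 7.7% lower. For TAM the trend-subtracted calls were TIPARP, CYP1A1 and CYP1B1, all higher, which is 3 of 8 beside 11.0% of 14534 genes higher and 11.3% lower. The median log2 fold change of the 8 genes was 0.04 for Rg3 and 0.26 for TAM, against 0.04 and -0.02 over all genes compared. The calls before subtraction and those for Rg3 lie near the background. The 3 for TAM with the trend subtracted include CYP1A1, which was compared against control through the TAM library alone. They also include CYP1B1, which was just past the fold limit, so this count is not set above the background. With 8 genes, chosen with earlier results of these data known, nothing is read from these counts about the group. Scaled by library totals, which moved every log2 fold change by 0.14 for Rg3 and -0.21 for TAM, all genes split into 4456 higher and 1807 lower for Rg3 in place of 3438 and 2675, and into 1176 and 4415 for TAM in place of 2322 and 3059. When cultures were assumed to vary with a 0.2 coefficient of variation, the exact test in edgeR made none of the calls of the 10 genes against control.

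**Figure D1:**
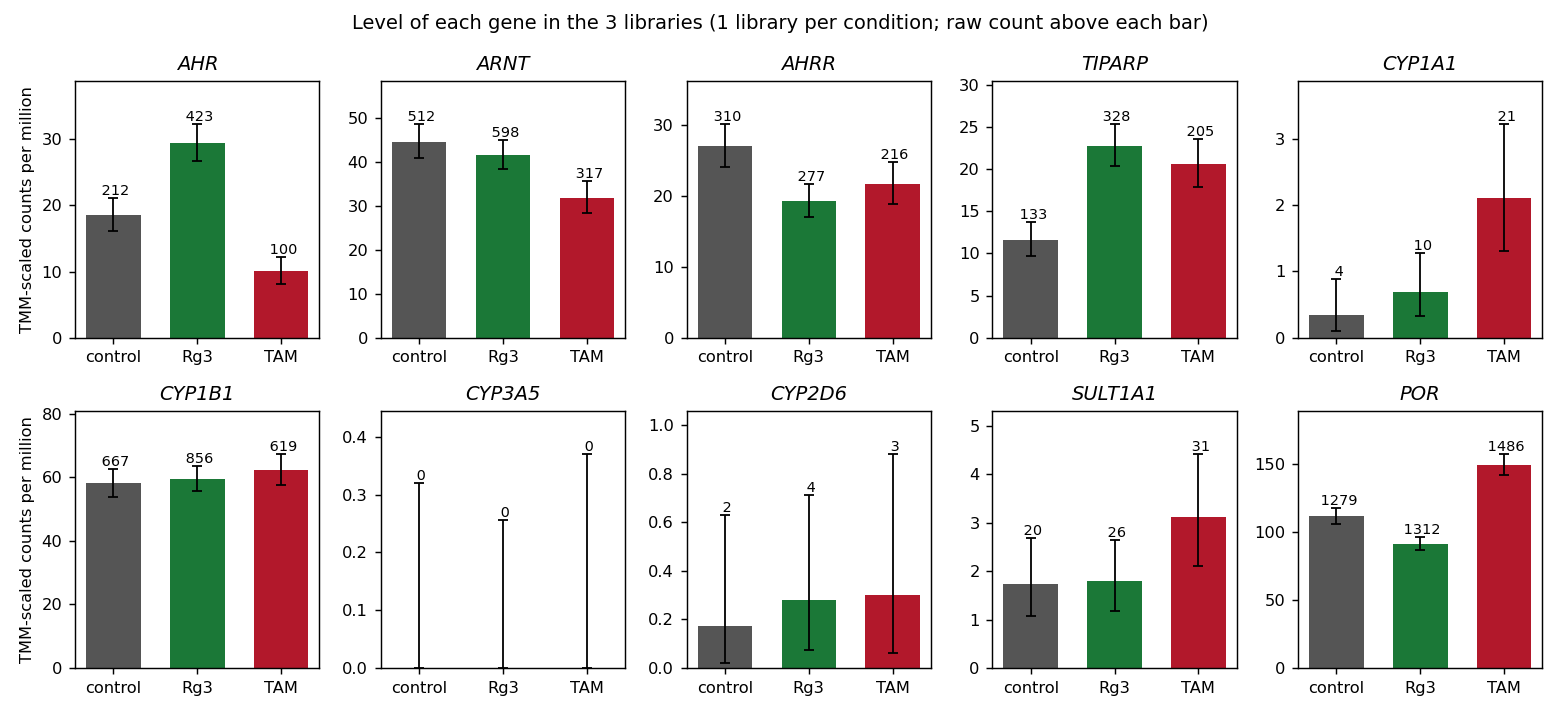
Bars show the TMM-scaled CPM of each of the 10 genes in the control, Rg3 and TAM libraries (1 library each), with the exact Poisson 95% interval as the error bar and the raw count above it. AHR was highest with Rg3 and lowest with TAM, TIPARP was higher with both agents, CYP1A1 was highest with TAM at 21 counts, and CYP3A5 had no count.

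AHR itself, at chr7:17298652-17346147 (GRCh38.p14, RefSeq), had 212 counts in control cells, 423 with Rg3 and 100 with TAM. These correspond to 18.5, 29.4 and 10.0 scaled CPM, so that Rg3 gave the highest and TAM the lowest level and the 3 counting intervals did not overlap. Rg3 against control gave a log2 fold change of 0.67 (95% interval 0.43 to 0.91), a 1.59-fold higher level. For TAM against control it was -0.88 (-1.24 to -0.53), a level 0.544 times that of the control. The receptor transcript thus went opposite ways in the treated libraries, which share the control. Both values lay close to what other transcripts of its GC content and length showed, 0.80 for Rg3 and -0.81 for TAM. Subtracting the trend put the log2 fold changes at -0.13 (-0.38 to 0.11) and -0.07 (-0.43 to 0.28), and neither was called. Of the stretches of 50 bases in the AHR transcript, 33.4% recur in other genes, mainly in AC019117.2, which overlaps it on the same strand, so the reads of AHR are uncertain.

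ARNT, the obligate partner of the receptor at DNA, lies at chr1:150809713-150876599. It had 512, 598 and 317 counts in the control, Rg3 and TAM libraries, or 44.6, 41.5 and 31.9 scaled CPM. The TAM library was the low one, and the control and Rg3 intervals overlapped. Against control, ARNT was at a log2 fold change of -0.10 (-0.28 to 0.07) for Rg3 and -0.49 (-0.69 to -0.28) for TAM. Neither passed the fold limit. When the libraries were scaled by their totals, the value for TAM was -0.69 and passed it, and with the trend subtracted it was -0.16 (-0.37 to 0.04). The trend-subtracted value for Rg3 was -0.31 (-0.48 to -0.14), short of the fold limit. ARNT2, the paralogous partner that is prominent in neural tissue, had 21, 18 and 7 counts.

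Both feedback genes of the receptor were detected in all libraries. AHRR, at chr5:321714-438285, competes with the receptor for ARNT and had 310, 277 and 216 counts, or 27.0, 19.2 and 21.7 scaled CPM. The control library was the highest of the 3, and the intervals of the treated libraries overlapped. Its log2 fold change was -0.49 (-0.73 to -0.25) for Rg3 and -0.32 (-0.57 to -0.06) for TAM, both short of the fold limit. After subtraction of the trend these were -0.06 (-0.29 to 0.18) and -0.27 (-0.53 to -0.02). AHRR overlaps PDCD6 on the same strand, which had 1150, 1546 and 1093 counts, and 3.49% of its stretches of 50 bases recur there.

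TIPARP, at chr3:156674590-156706770, encodes the enzyme that ADP-ribosylates the receptor and limits its activity, and it is a target of the receptor in many cell types. It had 133 counts in control cells, 328 with Rg3 and 205 with TAM, or 11.6, 22.8 and 20.6 scaled CPM. Both treated libraries lay above the control, and their own intervals overlapped. The level was 1.97-fold higher with Rg3 (log2 fold change 0.98, 0.68 to 1.28) and 1.78-fold higher with TAM (0.83, 0.51 to 1.16). TIPARP was the 1 gene of the 10 that was called higher with both agents, which share the control library. The trend at its GC content of 42.8% ran 0.53 for Rg3 and -0.41 for TAM. TIPARP therefore stood above the trend in both libraries, by 0.44 (0.15 to 0.74) for Rg3, which is short of the fold limit, and by 1.24 (0.92 to 1.57) for TAM, which is past it. No stretch of its transcript recurs in another gene, and the antisense gene TIPARP-AS1 had 15, 13 and 18 counts.

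CYP1A1, at chr15:74719542-74725528, is the gene most often used as a readout of the receptor. It was close to the detection limit, with 4 counts in control cells, 10 with Rg3 and 21 with TAM, or 0.348, 0.694 and 2.11 scaled CPM. The TAM library was the highest, and its interval did not overlap that of the control. The log2 fold change for TAM was 2.60 (1.03 to 4.60), a 6.06-fold higher level that rests on 4 and 21 counts. CYP1A1 passed the minimum of 10 counts in that comparison through the TAM library alone, so its call adds no support to the count of genes called. For Rg3 it was 1.00 (-0.80 to 3.12), and an interval this wide does not tell a fall from a rise. The trend-subtracted value for Rg3 was 1.23 (-0.56 to 3.36), not called. For TAM it was 2.40 (0.83 to 4.40) and was still called, because the trend at the GC content of CYP1A1, 53.3%, was only 0.20. No stretch of 50 bases recurs elsewhere, and its neighbour and paralog CYP1A2 had no count in any library.

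CYP1B1, at chr2:38067509-38076151, oxidises steroids and hydrocarbons in tissues outside the liver. It had the most counts of the 4 P450 genes among the 10, with 667, 856 and 619 counts, or 58.1, 59.4 and 62.2 scaled CPM, and the 3 intervals overlapped. Its log2 fold change was 0.03 (-0.11 to 0.18) for Rg3 and 0.10 (-0.06 to 0.26) for TAM, and both intervals included a fold of 1. Set against the trend at its GC content of 44.1%, it was at -0.40 (-0.55 to -0.25) for Rg3, short of the fold limit, and higher at 0.59 (0.43 to 0.75) for TAM, just past the limit of 0.58. The stretches of CYP1B1 recur in CYP1B1-AS1 at 10.2%, an antisense gene with 3, 2 and 14 counts.

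**Figure D2:**
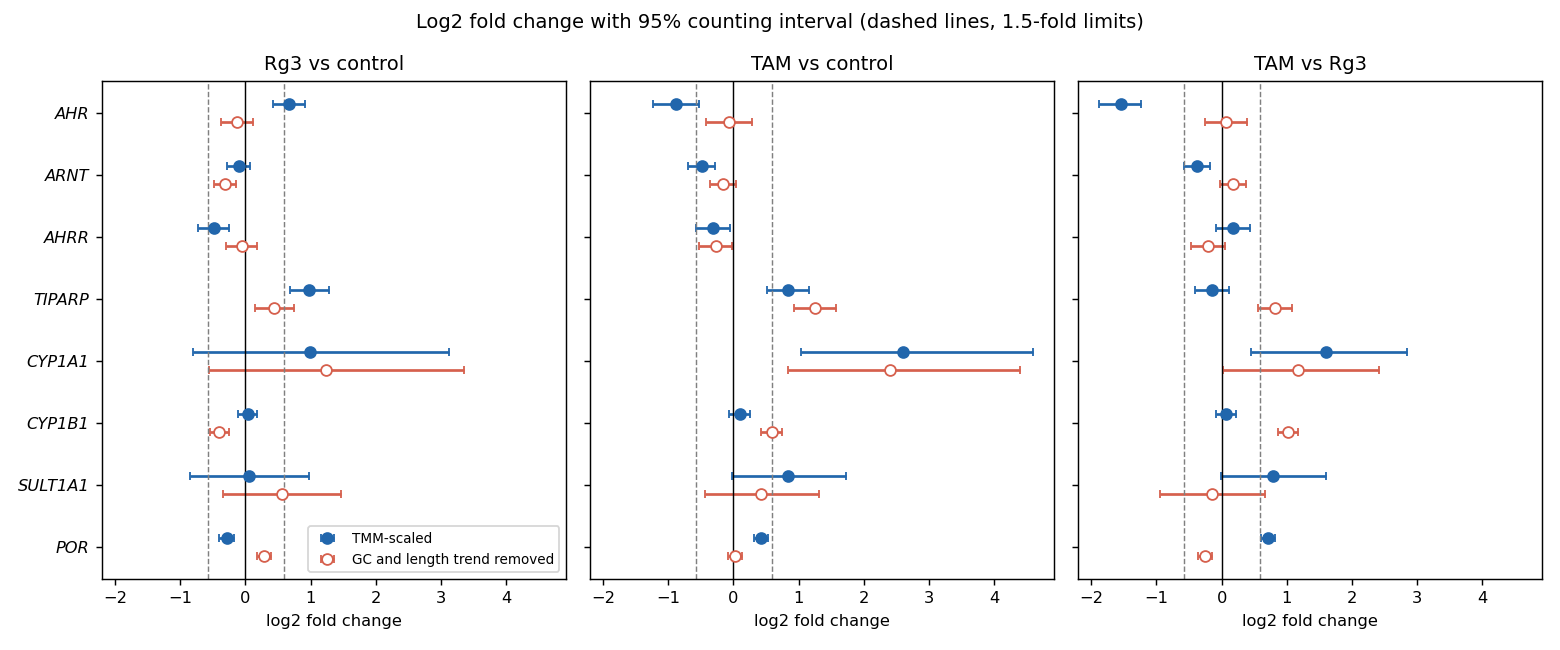
Points give the log2 fold change of the 8 compared genes in Rg3 against control, TAM against control and TAM against Rg3, with the 95% counting interval, on TMM-scaled counts (filled) and after the trend on GC content and length was subtracted (open); dashed lines mark the fold limit of 1.5. AHR moves from 0.67 and -0.88 to -0.13 and -0.07 when the trend is subtracted, whereas TIPARP and CYP1A1 in TAM against control are past the limit either way.

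The P450 enzymes that activate tamoxifen had few counts or none. CYP3A5, at chr7:99648194-99679996, had no count in any library, which allows 3 counts, or 0.261 scaled CPM in the control, 0.208 in the Rg3 and 0.301 in the TAM library. The exact Poisson 95% intervals of these levels reached 0.321, 0.256 and 0.371 scaled CPM. CYP2D6, at chr22:42126499-42130810, had 2, 4 and 3 counts, or 0.174, 0.278 and 0.301 scaled CPM, and the intervals of the 3 libraries overlapped. No fold was taken for either gene, since a change could not be detected at this depth. The reads of CYP2D6 are also uncertain, because 40.7% of its stretches of 50 bases recur in the pseudogenes CYP2D7 (1, 1 and 1 counts) and CYP2D8P (2, 1 and 0 counts). CYP3A4 and CYP3A7, in which 2.42% of the stretches of CYP3A5 recur together with the pseudogene CYP3A51P, had no count either, and neither did CYP3A43.

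SULT1A1, at chr16:28605258-28623375, had 20, 26 and 31 counts, or 1.74, 1.81 and 3.11 scaled CPM. The TAM library was the highest, with an interval that overlapped those of the other 2. Rg3 gave a log2 fold change of 0.05 (-0.85 to 0.97) and TAM one of 0.84 (-0.02 to 1.73), and the latter passed the fold limit but its counting interval included a fold of 1. With DESeq2 size factors that interval no longer included it and SULT1A1 was called higher for TAM, and with the trend subtracted the values were 0.56 (-0.34 to 1.47) for Rg3 and 0.42 (-0.44 to 1.30) for TAM. Of its stretches of 50 bases, 24.7% recur in SULT1A3 and SULT1A4, near-identical phenol sulfotransferase genes, so its reads are uncertain. SULT1A3 had 81, 104 and 121 counts, SULT1A4 had 76, 73 and 72, and SULT1A2 had 1, 5 and 7.

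POR, at chr7:75915155-75986855, had the most reads of the 10 genes, with 1279, 1312 and 1486 counts, or 111, 91.1 and 149 scaled CPM. The 3 intervals were apart, with TAM highest and Rg3 lowest, the reverse of the order for AHR. POR was at a log2 fold change of -0.29 (-0.40 to -0.18) for Rg3 and 0.42 (0.31 to 0.53) for TAM, both larger than the counting error and short of the fold limit. At the GC content of POR the trend ran -0.58 and 0.39, and with it subtracted POR was 0.29 (0.18 to 0.40) for Rg3 and 0.03 (-0.08 to 0.14) for TAM. The sign for Rg3 turned with the trend, and TMEM120A, which overlaps POR on the opposite strand, had 496, 573 and 658 counts.

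**Figure D3:**
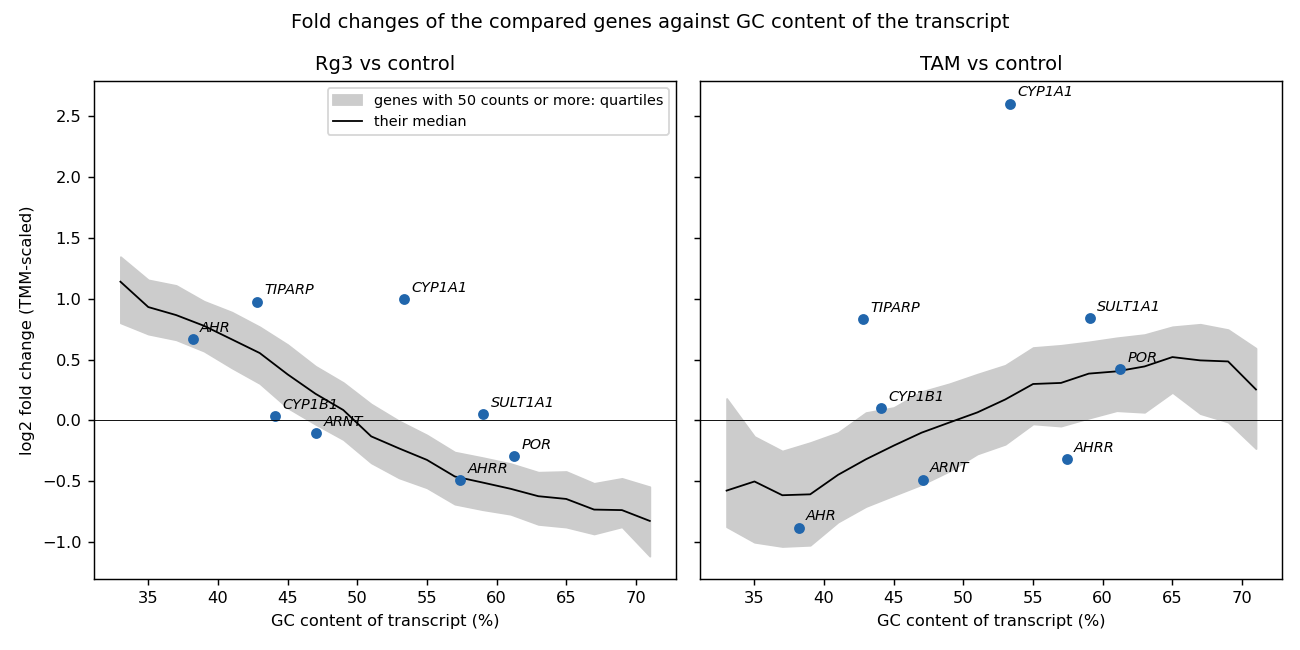
The log2 fold change (TMM-scaled) is plotted against the GC content of the transcript in percent, with the line giving the median and the grey band the quartiles of genes with at least 50 counts, and the points the 8 compared genes, of which CYP1A1 and SULT1A1 have fewer counts than that. AHR lies inside the band in both panels, at 0.67 and -0.88, whereas TIPARP and CYP1A1 lie above it in both.

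Levels were set between genes only per kilobase of transcript. In the control library POR was the highest at 44.0 scaled CPM per kilobase, followed by CYP1B1 at 11.1, ARNT at 9.12 and AHRR at 4.77. TIPARP at 2.77 and AHR at 2.65 came next and did not differ beyond their counting intervals. SULT1A1 was at 0.931, CYP1A1 at 0.130, CYP2D6 at 0.102 and CYP3A5 at 0, and CYP1A1 and CYP2D6 could not be ordered. The first 3 places were the same in all libraries. With Rg3, TIPARP (5.45) and AHR (4.22) stood above AHRR (3.40), and with TAM AHR (1.44) came after SULT1A1 (1.66), within overlapping intervals.

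The direct comparison of the treated libraries does not use a gene's count in the control, but the TMM factors came from all 3 libraries. CYP1A1 was 3.04-fold higher in the TAM than in the Rg3 library (log2 fold change 1.60, 0.45 to 2.85) and POR was 1.64-fold higher (0.71, 0.60 to 0.82). AHR was lower, at 0.342 times the Rg3 level (-1.55, -1.88 to -1.23). These are 2 genes higher and 1 lower of 8, beside 27.1% of 16493 genes called higher and 31.1% called lower. TIPARP differed by -0.15 (-0.40 to 0.11), CYP1B1 by 0.07 (-0.09 to 0.22), AHRR by 0.17 (-0.09 to 0.44), ARNT by -0.38 (-0.58 to -0.18) and SULT1A1 by 0.79 (-0.01 to 1.60), none past both limits. By library totals, which moved every value by -0.35, POR was at 0.36 and not called, ARNT at -0.73 was called lower, and all genes split into 2722 higher and 6786 lower in place of 4477 and 5123, while DESeq2 size factors brought SULT1A1 past both limits.

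Once the trend was subtracted, CYP1A1 was joined by TIPARP and CYP1B1 past the limits in that comparison, and AHR and POR were no longer past them. TIPARP was higher with TAM by 0.82 (0.56 to 1.08), CYP1B1 by 1.02 (0.87 to 1.17) and CYP1A1 by 1.17 (0.02 to 2.42), beside 16.8% of 14802 genes higher and 14.2% lower. AHR was at 0.07 (-0.26 to 0.39) and no longer differed beyond the counting error. POR turned to -0.26 (-0.36 to -0.15). AHRR was at -0.21 (-0.47 to 0.05). Of the 9 further targets of the receptor compared, 1 was higher (ABCG2 at 0.84) and 2 were lower (NFE2L2 at -1.32 and CYP2S1 at -1.59) on the same scale. ABCG2 had 57, 60 and 33 counts in the control, Rg3 and TAM libraries. Its value before subtraction was -0.33 and not called, so its sign turned with the trend. For Rg3 against control ABCG2 was at -0.25, not called, and lower at -0.89 with the trend subtracted.

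The other genes of the pathway were taken from 9 lists. Unless stated otherwise, their counts are given in the order control, Rg3 and TAM, and values are log2 fold changes against control, first for Rg3 and then for TAM, with the shares of all genes called as given for the 10 genes. The chaperones and partners of the receptor (12 genes, all compared) had 4 called higher and none lower for Rg3, with a median log2 fold change of 0.28, and none higher and 7 lower for TAM, with a median of -0.72. With the trend subtracted 1 was higher and none lower for Rg3, with a median of -0.02, and none was higher and 3 were lower for TAM, with a median of -0.20. HSP90AA1, the inducible cytosolic chaperone that holds the unliganded receptor, had 4363, 13669 and 3347 counts. It was higher with Rg3 at 1.32, and at 0.97 with the trend subtracted it was still called, while for TAM it was at -0.18 and 0.05. HSP90AB1, its constitutive form and the gene with the most reads in the list, was at -0.22 and 0.20 and, trend-subtracted, at -0.34 and 0.19, not called. NCOA1, a coactivator with 155, 356 and 83 counts, was higher with Rg3 at 0.87 and lower with TAM at -0.69, and at 0.44 and -0.03 with the trend subtracted it was called for neither. The coactivators NCOA2 (144, 229 and 41 counts) and EP300 (747, 1094 and 293 counts) and the pocket protein RB1 (160, 333 and 47 counts), which binds the receptor, were lower with TAM, at -1.61, -1.14 and -1.56. These 3 were, with the trend subtracted, still lower at -0.87, -0.62 and -0.89, and they were the 3 of 12 called.

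Of 16 further targets of the receptor, 9 were compared, with 2 higher and 2 lower for Rg3 (median 0.21) and 1 higher and 2 lower for TAM (median -0.35). The trend-subtracted numbers were again 2 and 2 (median 0.04), and 1 and 2 (median 0.12). NQO1, the quinone reductase that both the receptor and NRF2 induce, had 2035, 3218 and 2242 counts and was at 0.33 and 0.35, or 0.04 and 0.45 with the trend subtracted. The amino acid transporter SLC7A5 was at -0.32 and 0.27, or 0.27 and 0.12 with it subtracted, and neither gene was called. EREG, a growth factor, was higher with Rg3 at 0.62 and not so at -0.30 with the trend subtracted. CDKN1A, the cell cycle inhibitor p21, was higher with TAM at 1.07 and at 0.21, not called, with Rg3. Its trend-subtracted values of 0.68 for Rg3 and 0.71 for TAM were both called higher. NFE2L2, which encodes NRF2, was higher with Rg3 (1.03, trend-subtracted 0.71) and lower with TAM (-0.74, trend-subtracted -0.63). CYP2S1, a dioxin-inducible P450, had 169, 105 and 46 counts and was lower with both agents, at -1.01 and -1.67. With the trend subtracted it was at -0.44, not called, for Rg3 and at -2.03, called lower, for TAM. ALDH1A3, an aldehyde dehydrogenase, was lower with Rg3 at -0.82 and, trend-subtracted, at -0.72.

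Of 6 genes that make or break down kynurenine, a ligand of the receptor, 3 were compared, with 2 lower for Rg3 (median -0.80) and none called for TAM (median -0.06). Once the trend was subtracted 1 was lower for Rg3 (median -0.55) and none was called for TAM (median -0.36). The 2 were KMO, which consumes kynurenine and had 15, 6 and 5 counts, and AFMID, which produces it and had 475, 343 and 396 counts. AFMID was at -0.80 with Rg3 and, trend-subtracted, at -0.55, not called, and the trend-subtracted call was KMO. CCBL1, a kynurenine aminotransferase now named KYAT1, was at -0.10 and 0.55 and, trend-subtracted, at 0.31 and 0.23, none called. All 10 other P450 and flavin enzymes that act on tamoxifen had no count in any library, as was the case for CYP3A5. Of 16 other conjugating enzymes 11 had no count and 3 were compared, with 1 lower for Rg3 (median -0.38) and 1 higher for TAM (median 0.13). Subtraction of the trend left 1 lower for each agent (medians -0.07 and -0.22). SULT2B1, a hydroxysteroid sulfotransferase, was the one lower with Rg3, at -1.41 and, trend-subtracted, at -0.89, and with TAM it was at -0.28, not called, and lower at -0.74 once the trend was subtracted. SULT1A3 was the one higher with TAM, at 0.79, and was not called with the trend subtracted (0.45). Its near-identical copy SULT1A4 was at 0.13 with TAM and, trend-subtracted, at -0.22, not called, so the reads of SULT1A3 are uncertain too.

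The 8 genes around the sulfate and glucuronic acid donors cover supply, transport and removal of a by-product. With TAM 2 were higher and 3 lower (median -0.31), and with Rg3 2 were higher and none lower (median 0.36). The 2 higher with TAM, SLC35B2 and BPNT1, do not make a donor. On the trend-subtracted scale 2 were higher and 2 lower with TAM (median -0.05), and none was called with Rg3 (median -0.08). SLC35B2, which carries the sulfate donor into the Golgi, had 2464, 2491 and 4847 counts and was higher with TAM at 1.18 and, trend-subtracted, at 0.81. BPNT1, a phosphatase of the sulfation by-product, was higher with TAM at 0.95 and, trend-subtracted, at 1.15. UGDH, which makes the glucuronic acid donor, had 954, 1281 and 313 counts and was lower with TAM at -1.40 and, trend-subtracted, at -1.05. PAPSS2, which makes the sulfate donor, was lower with TAM at -1.28 and, trend-subtracted, at -1.04, and was higher with Rg3 at 0.60, as was UGP2, which makes UDP-glucose, at 0.93. Neither was called for Rg3 with the trend subtracted (0.32 and 0.30).

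The 20 genes of electron and heme supply, the setting in which POR acts, had 2 higher and 2 lower for Rg3 (median -0.09) and 5 higher and none lower for TAM (median 0.26). With Rg3 the genes higher were CPOX (0.62) and FDX1 (0.59), and FDXR (-0.75) was among those lower. Subtracting the trend left none of these called for Rg3, with CPOX at 0.45, FDX1 at 0.00 and FDXR at -0.10, and BLVRB at 0.59 was then the 1 gene higher, with none lower (median -0.03). CYB5B, with the most reads of the list, was at 0.22 and -0.01 and, trend-subtracted, at -0.41 and 0.48, not called. UROD, an enzyme of heme synthesis, was among the genes higher with TAM, at 0.65, as were CYB5R1 and BLVRB at 0.65 and 0.68. With the trend subtracted the count for TAM was 2 higher (CYB5A at 0.72 and FDX1 at 0.81) and none lower (median 0.08), and UROD at 0.29, CYB5R1 at 0.36 and BLVRB at 0.18 were not called. The 10 regulators of drug metabolism were nuclear receptors and CEBPB, which is not one. Of them 6 were compared, with 2 higher and 1 lower for Rg3 (median -0.07) and 1 higher and 2 lower for TAM (median 0.13). PPARA and NR3C1, the latter being the glucocorticoid receptor, were higher with Rg3 (0.70 and 0.70) and lower with TAM (-1.37 and -0.77), as AHR was, and RXRA was lower with Rg3 (-0.87) and higher with TAM (0.61). The trend-subtracted value for PPARA with TAM was -0.70, still lower, whereas NR3C1 was at 0.03 and RXRA at 0.13. For Rg3 none of the 3 was called once the trend was subtracted, with PPARA at 0.52, NR3C1 at -0.05 and RXRA at -0.25. The list then had 1 higher for Rg3, which was CEBPB at 0.74, and none lower (median 0.11). For TAM the list had none higher and 1 lower (median 0.02). Before subtraction CEBPB was at 0.04 with Rg3 and was not called. RXRB was at -0.36 and 0.46 and, trend-subtracted, at 0.13 and 0.15, not called.

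The other factors of the PAS family, to which AHR, ARNT and AHRR belong, had 10 of 12 compared, with 4 higher and 2 lower for Rg3 (median 0.01) and 2 higher and 4 lower for TAM (median -0.16). The trend-subtracted calls were none higher and 1 lower (median 0.19), and 2 higher and 1 lower (median -0.14). HIF1A, the oxygen-regulated factor that shares ARNT as its partner, had 256, 744 and 119 counts and was higher with Rg3 at 1.21 and lower with TAM at -0.90. With the trend subtracted it was at 0.30 and -0.31 and was not called, as for AHR. EPAS1 was higher with TAM at 0.61 and, trend-subtracted, at 0.75, and PER1 at 0.77 and 0.62. ARNTL2 was higher with Rg3 at 1.00 and CLOCK lower with TAM at -1.50, while the trend-subtracted values of 0.33 and -0.54 were not called. SIM2 was lower with both agents (-0.75 and -0.78), and so was PER2 (-0.75 and -0.69). With the trend subtracted, SIM2 was at -0.32, not called, for Rg3 and lower at -0.86 for TAM, whereas PER2 was lower at -0.60 for Rg3 and at -0.42, not called, for TAM. NPAS2, with the most reads, was at 0.08 and 0.05 and, trend-subtracted, at 0.29 and 0.03. The 9 lists held 108 distinct genes of the table. Those compared against control numbered, in the order of the lists above, 12, 9, 3, 0, 3, 8, 20, 6 and 10. For TAM against Rg3 the kynurenine list had 2 in place of 3. The calls that follow are out of the genes compared and not out of 108. For Rg3 16 were called higher and 10 lower, beside 20.9% and 16.2% of all genes compared. For TAM these were 12 and 18, beside 14.4% and 19.0%, and for TAM against Rg3 23 and 22, beside 27.1% and 31.1%. Scaled by library totals the calls were 19 and 10, 4 and 23, and 5 and 29. All genes then split into 4456 and 1807, 1176 and 4415, and 2722 and 6786.

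The genes whose pattern was most like that of TIPARP, the gene with the largest change against control among those with at least 50 counts, were SLC2A6, RPL15P5 and C12orf29. Likeness was the distance between the pairs of log2 fold changes against control over the 3 libraries, ranked among 11095 genes with at least 100 counts in a library. SLC2A6, a glucose transporter family member, had 292, 683 and 469 counts and lay at a distance of 0.0968, with log2 fold changes of 0.90 for Rg3 and 0.89 for TAM. C12orf29 had 102, 266 and 149 counts at a distance of 0.112, and RPL15P5, a pseudogene copy of RPL15 whose reads are uncertain for that reason, lay at 0.104.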

How the data were processed

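RNA of PANC-1 cells was sequenced on the Ion Proton platform, 1 library each of control, Rg3 and TAM cells. Per the methods, the authors checked reads with FAST-QC, aligned them with TopHat and assembled splice junctions with MAQ, and they deposited raw counts per gene symbol in 1 table. The build GRCh38 comes from the submitters' processing notes. The counting tool, annotation and use of strand are not given in the sources used here, so reads of overlapping genes cannot be told apart. The number of value columns left unused was 0. Groups came from the agent in the sample labels, and doses and time from the treatment protocol.

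From the deposited counts, TMM factors (1.02 for control, 1.12 for Rg3 and 0.879 for TAM) were computed with edgeR 4.0.16 in R 4.3.3, and folds in Python 3.11.15. For a fold, any lower count was set to the floor of 3 counts, the limit that a count of 0 allows. Intervals of a fold were Clopper-Pearson intervals and those of a level exact Poisson intervals, at 95%, computed with scipy 1.17.1. With 1 library per condition Limma could not be fitted, and only the fold limits of the methods, 1.5 and 0.67, were kept. Reads without molecular identifiers are not independent molecules, so the intervals cover counting error only.

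GC content and length came from the longest protein-coding GENCODE 29 transcript of a gene name, and were found for 89.9%, 90.4% and 89.7% of the genes compared for Rg3, TAM and TAM against Rg3. The trend was a loess fit with a span of 0.3. Alternatives were library totals, DESeq2 1.42.0 size factors, filters of 1 and 50 counts, a fold of 2, the fold with no interval, the exact test of edgeR at an assumed coefficient of variation of 0.2 or 0.4, and the trend subtracted. The call rule was tested on simulated Poisson counts, drawn from the control profile at the total of each library. They held no trend on GC content and no variation between cultures, so they bear on counting error only. At the totals of Rg3 and control the rule called 92.4% of 198 genes changed 2-fold (16220 genes) and 200 of 16022 unchanged genes. At the totals of TAM and control it called 90.9% of 198 (16058 genes) and 208 of 15860 unchanged genes.

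All 10 genes are named. From each list, the genes named came from the 2 largest and the 2 smallest fold changes among those called with at least 20 counts per treated library and from the 2 genes with the most reads in the control. Some genes that this rule names are not reported here. EP300, KMO, CYB5A, CYB5R1, CEBPB and ABCG2 were chosen after their values were seen, and paralogs and overlapping genes are named for their shared reads. Promoters and positions are RefSeq's on GRCh38.p14. The 10 genes and the lists were chosen with earlier results of these data known.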

Additional observations from a re-analysis of the deposited data

Results flagged for a closer look

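AHR was singled out because it was called in opposite directions in the treated libraries, higher with Rg3 and lower with TAM, which share the control library. Its log2 fold change between TAM and Rg3 was -1.55. The difference was not tested between conditions, since each has 1 library. The trend-subtracted value was 0.07, and the trend at the GC content and length of AHR ran -1.62 in that comparison.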

How the results depend on the processing

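With DESeq2 size factors all 24 log2 fold changes of the 8 compared genes stayed inside their counting intervals, and with library totals 14 did and 10 moved further. With the GC and length trend subtracted, the log2 fold change of AHR for TAM against Rg3 was 0.073 and that of AHR for Rg3 was -0.13, POR for TAM against Rg3 turned to -0.26, and 15 further values moved. For the 10 genes, calls higher for Rg3 were 2, and 0 with a fold of 2, with either assumed coefficient of variation and with the trend subtracted. Calls higher for TAM were 2, with 1 at a filter of 50 counts (CYP1A1 was no longer compared) or a fold of 2 and 0 at either assumed variation. Calls lower for TAM were 1, with 2 by library totals (AHR and ARNT) and 0 with a fold of 2, either assumed variation or the trend subtracted. For TAM against Rg3, calls higher were 2, with 1 by library totals, a filter of 50 counts or a fold of 2 and 0 at either assumed variation, and calls lower were 1, with 2 by library totals and 0 at a variation of 0.4 or with the trend subtracted. AHR for TAM against Rg3 was the 1 call of the 10 genes that held at an assumed variation of 0.2. In that comparison and setting 2939 genes were called lower and 2156 higher over all 16493 genes compared, so nothing particular to AHR is read from it.

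For the pathway lists, calls are out of the list genes compared. Rg3 gave 16 higher and 10 lower, beside 20.9% and 16.2% of all genes compared. The list calls were 3 and 3 with a fold of 2, 0 and 0 at either assumed variation, and 5 and 5 with the trend subtracted. With the trend subtracted, 5.39% of all genes were called higher and 7.7% lower for Rg3. TAM gave 12 higher and 18 lower, beside 14.4% and 19.0% of all genes compared. The number higher was 4 by library totals, 2 with a fold of 2, 0 at either variation and 7 with the trend subtracted, and the number lower was 9 with a fold of 2, 4 at a variation of 0.2, 0 at 0.4 and 10 with the trend subtracted. Of all genes, 11.0% were called higher and 11.3% lower for TAM with the trend subtracted. TAM against Rg3 gave 23 higher and 22 lower, beside 27.1% and 31.1% of all genes compared. The number higher was 5 by library totals, 5 with a fold of 2, 4 at a variation of 0.2, 0 at 0.4 and 9 with the trend subtracted, and the number lower was 0 at 0.4 and 12 with the trend subtracted. The shares of all genes with the trend subtracted were 16.8% higher and 14.2% lower for TAM against Rg3. Over all genes, an assumed variation of 0.2 called 64 higher and 92 lower for Rg3 and 109 and 365 for TAM. For TAM against Rg3 it called 2156 and 2939. At 0.4 the calls were 0 and 1 for each agent against control, and 0 and 0 for TAM against Rg3. A fold of 2 called 1249 and 984 for Rg3, 746 and 1555 for TAM, and 2635 and 3676 for TAM against Rg3. Library totals shifted every log2 fold change by 0.14 for Rg3, -0.21 for TAM and -0.35 for TAM against Rg3. The cause of these differences was not tested. No paired analysis was possible because no condition has a second library, and for the same reason no library could be left out. Depth limits CYP3A5, CYP2D6, CYP1A1 and SULT1A1, each at 31 counts or fewer.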
